A study of Mus musculus with 8 samples.

Results

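The genes described here are 10 members of the signalling route from the receptors of granulocyte-macrophage colony-stimulating factor (GM-CSF) and interleukin-5 (IL-5) to the transcription factor STAT5 and its targets. They were chosen by symbol: the receptor chains Csf2ra, Csf2rb and Csf2rb2, the kinase Jak2, the factors Stat5a and Stat5b, the feedback inhibitors Socs2, Socs3 and Cish, and the kinase Pim1. Each symbol matched 1 of 54446 gene rows, and all 10 passed the filter on low counts that left 11828 genes to test. The study profiled sorted eosinophils from a mouse asthma model, and its title concerns the need of resident lung eosinophils for IL-5. RNA was read by CEL-Seq, a method that amplifies RNA linearly and sequences transcripts near their 3' ends. All 8 libraries came from C57BL/6 mice. Resident eosinophils had 4 libraries (replicates 3 to 6), Siglec-Fint/CD101- eosinophils 2 (replicates 1 and 2) and SiglecFhi/CD101+ eosinophils 2 (replicates 1 and 2). Siglec-F is a lectin of the eosinophil surface, and CD101 is a surface protein of the immunoglobulin superfamily. The labels give no allergen, treatment, time, age, sex or animal for any library, so any treatment that differed with the group is not separable from it. Nothing states that replicates came from separate mice. The p-values therefore rest on the spread among these libraries alone, and that spread may be technical.

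IL-5, IL-3 and GM-CSF each bind an alpha chain of their own, which pairs with a shared beta chain that carries the signal. Mice have the common chain, encoded by Csf2rb, and a close copy that serves IL-3, encoded by Csf2rb2. The beta chain holds JAK2, which phosphorylates STAT5A and STAT5B. These enter the nucleus and switch on genes that include Cish, Socs2, Socs3 and Pim1. The proteins of the first 3 dampen cytokine signalling, and Pim1 encodes a kinase that favours survival. IL-5 is the main cytokine of eosinophil production and survival, and GM-CSF also keeps these cells alive.

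Counts per library limited what could be seen. Totals ran from 5600610 to 11583550 in resident and from 1513517 to 3109428 in subset libraries. Outside genes of the mitochondrial genome, which took 38.6% to 61.8% of counts in resident and 69.9% to 83.9% in subset libraries, there were 2137819 to 5296468 and 444902 to 552121 counts. Levels are in CPM, counts scaled to the same library size in every library, with sizes adjusted by the trimmed mean of M-values (TMM). A count of 3, taken as the floor, equals 0.199 to 0.501 CPM in resident and 1.59 to 2.18 CPM in subset libraries. Of 11 eosinophil markers, 10 had a count in resident and 7 in either subset's libraries. Il5ra and Epx, which encode the IL-5 receptor alpha chain and eosinophil peroxidase, had 0 counts in both subsets. Of the sort markers that name the subsets, Siglecf had no count in either Siglec-Fint/CD101- library and 19 and 44 counts in SiglecFhi/CD101+ libraries (10.1 and 26.8 CPM). Resident libraries held 61 to 559 counts of Siglecf (4.28 to 43.95 CPM), a range that covered both SiglecFhi/CD101+ values. Cd101 had 0 and 1 counts in Siglec-Fint/CD101- and only 2 and 1 in SiglecFhi/CD101+ libraries, under the floor in all 4, against 60 to 504 counts in resident libraries. Cd101 transcripts therefore do not separate the subsets as labelled, which bears on every value between them. How much of the RNA came from eosinophils was not measured, and groups are called here as labelled. In such bulk RNA, fewer cells of a type and less RNA per cell cannot be told apart.

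None of the 10 genes passed edgeR's quasi-likelihood test in any comparison at a Benjamini-Hochberg adjusted p under 0.05. In SiglecFhi/CD101+ against resident libraries 0 of 10 passed, where 0.0254% of all tested genes did. At an unadjusted p under 0.05, 3 of the 10 (Csf2ra, Stat5a and Socs3) were lower, beside 13.1% of all genes, and 0 higher, beside 3.65%. DESeq2 called those 3 and limma-voom 0, beside 907 and 2 of all 11828 genes. In Siglec-Fint/CD101- against resident libraries 0 of 10 passed, beside 0.0592% of all genes (0.0338% higher and 0.0254% lower). There 2 (Csf2rb and Socs2) were lower at an unadjusted p under 0.05, beside 13.8% of all genes, and 0 were higher, beside 1.9%. DESeq2 called Socs2 and limma-voom 0, beside 652 and 2 of all 11828 genes. Between the subsets 0 of 10 passed, beside 0.00845% of all genes. Lower in SiglecFhi/CD101+ libraries at an unadjusted p under 0.05 were 3 (Csf2ra, Stat5a and Socs3), beside 7.96% of all genes, and higher was 1 (Socs2), beside 9.98%. DESeq2 called these 4 and limma-voom 0, beside 1269 and 0 of all 11828 genes. For the mean of both subsets against resident libraries the count was again 0 of 10, beside 0.0254% of all genes. Here 5 (Csf2ra, Csf2rb, Stat5a, Socs3 and Pim1) were lower at an unadjusted p under 0.05, beside 21.0% of all genes, and 0 higher, beside 1.91%. DESeq2 called 1 (Stat5a) and limma-voom 0, beside 1020 and 5 of all 11828 genes. The 3 comparisons with resident libraries share those libraries and are not independent. The folds below thus describe these libraries, and none is a called change.

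The 10 genes were also set beside all tested genes. Their median log2 fold change against resident libraries was -1.14 in SiglecFhi/CD101+ and -1.04 in Siglec-Fint/CD101- libraries, beside -0.716 and -0.997 for all tested genes. Between the subsets it was 0.05, beside 0.00. With Stat5a, which had no count in SiglecFhi/CD101+ libraries, set to its bound, these medians were the same. They rest on single libraries: without Siglec-Fint/CD101- replicate 1 or 2 its median from resident was -2.41 or -0.56, beside -3.294 and -4.424 for all genes then tested. Without SiglecFhi/CD101+ replicate 1 or 2 that group's median was -1.42 or -1.81, beside -3.147 and -2.123. Between the subsets it was -0.72 without Siglec-Fint/CD101- replicate 2 and -0.69 without SiglecFhi/CD101+ replicate 2, beside 0.483 and 0.0. With a subset library left out, 14609 to 14968 genes passed the filter in place of 11828. These all-gene medians are thus over a larger set of genes, and the distance of the 10 genes from them cannot be read. Values differed far more among the 10 genes than the medians show, and the plot of CPM by library gives each.

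**Figure D1:**
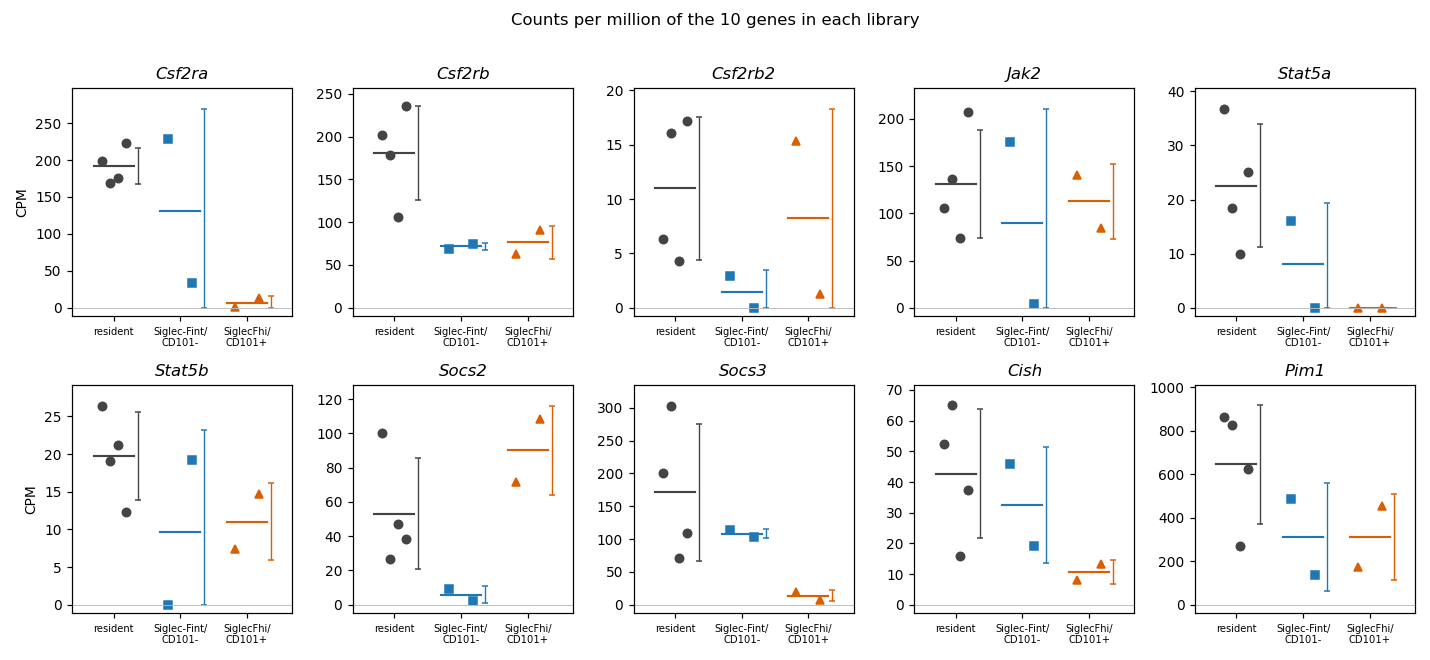
CPM of each of the 10 genes (vertical axes, linear) in 4 resident, 2 Siglec-Fint/CD101- and 2 SiglecFhi/CD101+ libraries. Points are libraries, horizontal lines are group means and vertical bars are the mean ± SD, drawn no lower than 0. Csf2rb lies at 63.1 to 90.3 CPM in the 4 subset libraries, below the 105.5 to 235 CPM of the resident libraries. Socs2 is low in Siglec-Fint/CD101- and Socs3 in SiglecFhi/CD101+ libraries.

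Csf2rb, the shared signalling chain, had the most even levels within each subset. It was at 201.5, 178.9, 105.5 and 235 CPM in resident replicates 3 to 6. The Siglec-Fint/CD101- libraries held 69.1 and 74.5 CPM, and the SiglecFhi/CD101+ libraries 63.1 and 90.3 CPM. Every subset library thus lay below every resident library, and the subsets' ranges overlapped. The log2 fold change from resident was -1.33 ± 0.59 (SE) in Siglec-Fint/CD101- (edgeR adjusted p = 0.31) and -1.23 ± 0.59 in SiglecFhi/CD101+ libraries (adjusted p = 0.301). For the mean of both subsets it was -1.28 ± 0.46 (adjusted p = 0.145), a level 2.43-fold lower. With 1 library left out, that fold change ran from -1.49 to -1.07. Csf2rb was the only 1 of the 10 whose 4 subset values all lay below the resident values, and 12.0% of tested genes did the same. With RLE normalization, the scaling DESeq2 uses, the ranges of Csf2rb overlapped.

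Csf2rb2 lies 20030 bases from Csf2rb on chromosome 15 in the GENCODE M21 annotation of GRCm38 (Csf2rb2 at 78282507 to 78305721 on the minus strand, Csf2rb at 78325752 to 78353847 on the plus strand). Their coding sequences are 92.9% identical, so whether reads can be told apart bears on both values. The final 120 coding bases of Csf2rb2 and the stretch of Csf2rb aligned to them are shown because the copies are near-identical there. They are from GENCODE M21 transcripts, bases 2515 to 2634 of each coding sequence. Capitals mark the 6 bases that differ.
Csf2rb: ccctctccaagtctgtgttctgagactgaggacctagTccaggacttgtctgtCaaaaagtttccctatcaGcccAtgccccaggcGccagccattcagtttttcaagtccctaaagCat
Csf2rb2: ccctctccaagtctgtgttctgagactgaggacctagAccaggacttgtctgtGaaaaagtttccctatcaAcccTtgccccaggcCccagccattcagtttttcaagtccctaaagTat
Nearer the 3' end, where CEL-Seq reads fall, the transcripts differ more: their last 300 bases are 70.3% identical. None of the 951 stretches of 50 bases in the last 1000 bases of one transcript recurs in the other. Read length and strand setting are not stated in the labels or processing notes.

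Counts of Csf2rb2, the chain that serves IL-3, were few. Resident libraries held 6.35, 16.04, 4.28 and 17.2 CPM in replicates 3 to 6. The Siglec-Fint/CD101- libraries had 4 and 0 counts (2.91 and 0 CPM), below all resident libraries, and the SiglecFhi/CD101+ libraries had 29 and 2 counts (15.4 and 1.22 CPM). Of the SiglecFhi/CD101+ values, 1 thus lay inside the resident range and 1 below it. The 4 and 562 pooled counts of Siglec-Fint/CD101- and resident libraries give a level 8.74-fold lower, with an exact 95% counting interval of 3.39 to 32.2 that covers counting error only. The fitted log2 fold change was -2.93 ± 1.93 (edgeR adjusted p = 0.427), and rests on Siglec-Fint/CD101- replicate 1, without which that group had 0 counts. In SiglecFhi/CD101+ against resident libraries it was -0.40 ± 1.62 (adjusted p = 0.934), and its sign changed with RLE normalization (0.06), with counts outside mitochondrial genes thinned to one number (0.42) and without SiglecFhi/CD101+ replicate 2 (0.38).

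Csf2ra, the alpha chain that gives the receptor its binding of GM-CSF, was even among resident libraries and low in SiglecFhi/CD101+ libraries. Resident replicates 3 to 6 held 198.7, 168.9, 175.8 and 222.6 CPM. The SiglecFhi/CD101+ libraries held 1 and 21 counts (0.53 and 12.8 CPM), the first of them under the floor of its library. The Siglec-Fint/CD101- libraries disagreed, with 229 CPM in replicate 1, above all resident libraries, and 34.2 CPM in replicate 2, below them. SiglecFhi/CD101+ values thus lay below every other library. Against resident libraries, their log2 fold change was -4.85 ± 1.12 (edgeR adjusted p = 0.111), or 28.9-fold lower. Against Siglec-Fint/CD101- libraries it was -4.31 ± 1.14 (adjusted p = 0.199). Without SiglecFhi/CD101+ replicate 2 the first of these was -8.55 and without replicate 1 it was -3.98. The difference from resident libraries passed without either Siglec-Fint/CD101- replicate (adjusted p = 0.0463 without replicate 1 and 0.0476 without replicate 2), with no filter (0.000109) and with DESeq2 (0.0038). Over all alternatives its adjusted p ranged from 0.000109 to 0.328. In Siglec-Fint/CD101- libraries the log2 fold change from resident was -0.54 ± 0.86 (adjusted p = 0.776), and 0.24 without replicate 2.

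The other alpha chains gave little to compare. Il5ra had 1 and 57 counts in resident replicates 3 and 6 and 0 in the other 6 libraries, too few to test. A library without counts could still hold up to its floor, 1.59 to 2.18 CPM in subset libraries, so a level like that of resident replicate 6 (3.79 CPM) would lie just above it. Il3ra, which binds IL-3, was at 16.7, 2.99, 10.9 and 2.46 CPM in resident replicates 3 to 6, at 40.7 and 34.2 CPM in Siglec-Fint/CD101- and in SiglecFhi/CD101+ libraries at 65.2 and 0.61 CPM. Both Siglec-Fint/CD101- libraries were above the resident range, with a log2 fold change of 2.18 ± 1.33 (edgeR adjusted p = 0.394), while the SiglecFhi/CD101+ libraries fell on both sides of it. Transcripts of the ligands were near or at 0. Csf2, which encodes GM-CSF, had 5 counts over the resident libraries and 3 in SiglecFhi/CD101+ replicate 1. Il5 had 2 counts, both in resident replicate 5, and Il3 had 0 in all 8 libraries.

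Jak2, the kinase bound to the beta chain, overlapped in all groups. It was at 105.4, 136.5, 73.5 and 207 CPM in resident replicates 3 to 6, at 140.5 and 84.8 CPM in SiglecFhi/CD101+ libraries, and at 175 and 4.35 CPM in Siglec-Fint/CD101- libraries. Siglec-Fint/CD101- replicate 2, with 7 counts, stood apart from the other 7 libraries. The log2 fold change from resident was -0.21 ± 0.92 in SiglecFhi/CD101+ (edgeR adjusted p = 0.937) and -0.54 ± 0.93 in Siglec-Fint/CD101- libraries (adjusted p = 0.795). The first turned positive with RLE normalization (0.26), and the second without Siglec-Fint/CD101- replicate 2 (0.40). Between the subsets it was 0.33 ± 1.052, and -0.725 without that library.

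Stat5a and Stat5b, which encode the 2 forms of STAT5, lie 8626 bases apart on chromosome 11 (Stat5b at 100780731 to 100850724 on the minus strand, Stat5a at 100859351 to 100885169 on the plus strand; GRCm38). Resident replicates 3 to 6 held 36.8, 18.5, 9.96 and 25.1 CPM of Stat5a. Siglec-Fint/CD101- replicate 1 held 16 CPM (22 counts), and the other 3 subset libraries had 0 counts. Taking 3 counts per group as the floor against the pooled 975 resident counts, the SiglecFhi/CD101+ level was at least 23.9-fold lower than the resident level (edgeR adjusted p = 0.202). With the same floor against the 22 pooled Siglec-Fint/CD101- counts, it was 8.66-fold lower there than in Siglec-Fint/CD101- libraries (edgeR adjusted p = 0.242). Counting error on those 22 counts allows a smaller fold. The difference rests on Siglec-Fint/CD101- replicate 1, since without it both groups had 0 counts. With 3 counts in each library, the floor used for CPM, both folds would be smaller. They cover counting error of the 0 counts only and take the counts of the other group as exact. Counts outside mitochondrial genes were also thinned to 444902 in each library, the number in the library that had fewest of them. Stat5a then had 56, 21, 15 and 6 counts in resident replicates 3 to 6, 20 and 0 in Siglec-Fint/CD101- libraries, and none in either SiglecFhi/CD101+ library. The lowest resident library was then only 6 counts from the subsets' 0. The 3' end of Stat5a overlaps 72 bases of Stat3 on the other strand, and reads there cannot be told apart without strand. Stat3 had 19 to 161 counts in the subset libraries.

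Stat5b did not follow Stat5a. Resident replicates 3 to 6 were at 26.4, 19.1, 21.2 and 12.3 CPM, SiglecFhi/CD101+ libraries at 7.42 and 14.6 CPM, and Siglec-Fint/CD101- libraries at 0 and 19.3 CPM. In the 4 subset libraries the 2 genes never both had counts: Siglec-Fint/CD101- replicate 1 had counts of Stat5a only, and the other 3 of Stat5b only. All 4 resident libraries had counts of both. The log2 fold changes of Stat5b from resident were -0.84 ± 1.47 in SiglecFhi/CD101+ (edgeR adjusted p = 0.815) and -1.03 ± 1.49 in Siglec-Fint/CD101- libraries (adjusted p = 0.749). The second was -0.09 without Siglec-Fint/CD101- replicate 1, and without replicate 2 that group had 0 counts.

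The inhibitors Socs2, Socs3 and Cish are induced by STAT5 and act back on the receptor. STAT5 binds the motif TTCNNNGAA, which reads the same on both strands. RefSeq promoter windows (GRCm38.p6; 250 bases before to 50 after a start) were found for 8 of the 10 genes, in 11 windows. The motif was in windows of 3 genes: Cish, Socs3 and Csf2rb2. It was in 8.30% of all 32851 windows, and 0.457% held it at least 2 times, as Cish did. The windows are printed to 30 bases past the start, with the motif in capitals, because these are the members whose windows hold it. Cish lies at chr9:107296409-107296688 on the plus strand, Socs3 at chr11:117969337-117969616 on the minus strand and Csf2rb2 at chr15:78305692-78305971 on the minus strand.
Cish: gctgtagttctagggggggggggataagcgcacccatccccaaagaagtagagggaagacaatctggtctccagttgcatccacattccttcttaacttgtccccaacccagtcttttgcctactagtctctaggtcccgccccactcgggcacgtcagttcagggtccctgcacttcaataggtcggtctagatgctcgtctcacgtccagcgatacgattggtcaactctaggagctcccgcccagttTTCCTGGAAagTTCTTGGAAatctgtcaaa
Socs3: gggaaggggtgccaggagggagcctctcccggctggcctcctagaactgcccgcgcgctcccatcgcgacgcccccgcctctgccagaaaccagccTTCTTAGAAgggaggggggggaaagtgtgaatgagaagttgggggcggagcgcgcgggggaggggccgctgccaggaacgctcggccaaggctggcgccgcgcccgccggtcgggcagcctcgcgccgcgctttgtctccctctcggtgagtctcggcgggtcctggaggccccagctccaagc
Csf2rb2: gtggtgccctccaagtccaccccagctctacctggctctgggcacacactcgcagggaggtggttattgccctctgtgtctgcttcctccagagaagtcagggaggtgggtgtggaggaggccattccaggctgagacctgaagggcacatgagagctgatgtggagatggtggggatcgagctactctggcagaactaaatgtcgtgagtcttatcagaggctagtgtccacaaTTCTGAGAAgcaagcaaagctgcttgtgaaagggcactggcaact
Counted from the annotated start as base 1, the Cish motifs begin at bases 1 and 12, that of Socs3 at base -154 and that of Csf2rb2 at base -15. A match is a description of the letters and not evidence of binding.

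Socs3, a strong inhibitor of JAK kinases, was low in SiglecFhi/CD101+ libraries. It was at 201.4, 303, 70.8 and 109 CPM in resident replicates 3 to 6 and at 113 and 103 CPM in Siglec-Fint/CD101- libraries, inside the resident range. The SiglecFhi/CD101+ libraries held 19.6 and 7.93 CPM (37 and 13 counts), below the other 6. Their log2 fold change was -3.63 ± 0.82 from resident (edgeR adjusted p = 0.11), or 12.4-fold lower, and -2.97 ± 0.84 from Siglec-Fint/CD101- libraries (adjusted p = 0.214). With 1 library left out, these ran from -4.51 to -3.07 and from -3.83 to -2.53. The first passed without either Siglec-Fint/CD101- replicate (adjusted p = 0.0499 each), with no filter (0.00665) and with DESeq2 (0.00418), within a range of 0.00418 to 0.408 over all alternatives. In Siglec-Fint/CD101- against resident libraries the log2 fold change was -0.66 ± 0.69 (adjusted p = 0.631).

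Socs2, which restrains growth hormone and other STAT5 signalling, had the opposite order. The SiglecFhi/CD101+ libraries held 71.6 and 108.5 CPM (135 and 178 counts), inside or just above the resident values of 100.3, 26.8, 47.1 and 38.5 CPM in replicates 3 to 6. The Siglec-Fint/CD101- libraries held 9.45 and 2.48 CPM (13 and 4 counts), below all others. Between the subsets Socs2 was 15.2-fold higher in SiglecFhi/CD101+ libraries, with a fitted log2 difference of 3.92 ± 1.12 (edgeR adjusted p = 0.214), and 3.17 to 5.13 with 1 library left out. From resident libraries the Siglec-Fint/CD101- log2 fold change was -3.16 ± 1.02 (adjusted p = 0.288), with -4.46 to -2.50 when a library was left out. That of SiglecFhi/CD101+ libraries was 0.76 ± 0.82 (adjusted p = 0.663). DESeq2 called the difference between the subsets (adjusted p = 0.00346, in a range of 0.00346 to 1.0 over alternatives) and that of Siglec-Fint/CD101- from resident libraries (adjusted p = 0.0366, in a range of 0.0366 to 0.53). It was the only member higher in SiglecFhi/CD101+ than in Siglec-Fint/CD101- libraries without overlap, as were 15.8% of all tested genes.

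Cish, whose protein competes with STAT5 for the receptor, had the pattern of Socs3 at a smaller size. Resident replicates 3 to 6 were at 52.5, 65.2, 15.98 and 37.4 CPM, Siglec-Fint/CD101- libraries at 45.8 and 19.3 CPM, and SiglecFhi/CD101+ libraries at 7.95 and 13.4 CPM. SiglecFhi/CD101+ values were again below the other 6 libraries, though resident replicate 5 was close. The log2 fold change from resident was -2.0 ± 1.06 (edgeR adjusted p = 0.336), and that from Siglec-Fint/CD101- libraries -1.60 ± 1.14 (adjusted p = 0.456). In Siglec-Fint/CD101- against resident libraries it was -0.40 ± 0.97 (adjusted p = 0.863), and 0.08 without Siglec-Fint/CD101- replicate 2. On library totals alone the subsets' ranges overlapped. Gm17040, on the other strand of Cish, had 36 counts or fewer in any library.

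**Figure D2:**
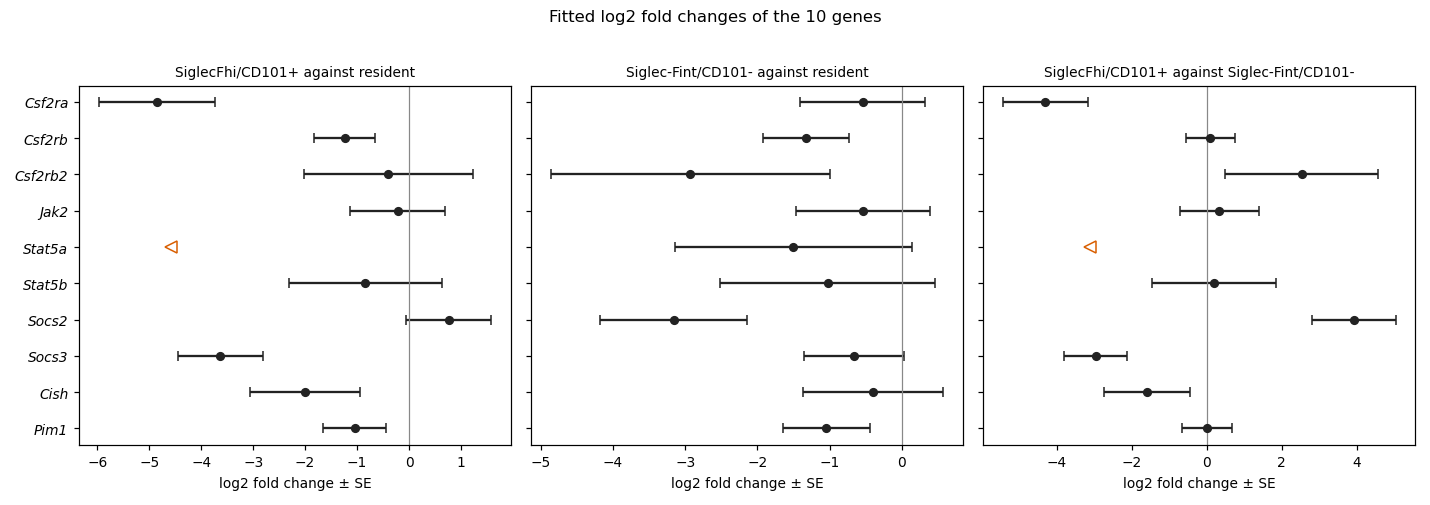
Fitted log2 fold changes (horizontal axes; points, with bars of ± 1 SE) of the 10 genes in the 3 pairwise comparisons. Open triangles stand for Stat5a where SiglecFhi/CD101+ libraries had 0 counts. They mark the fold with that group set to its floor, 23.9-fold or 8.66-fold lower, with the other group's counts taken as exact. Among fitted points, Csf2ra and Socs3 are farthest to the left in both comparisons of SiglecFhi/CD101+ libraries, and Socs2 lies to the right between the subsets and to the left in Siglec-Fint/CD101- libraries.

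Pim1, a survival kinase and STAT5 target, was at 862, 827, 268 and 622 CPM in resident replicates 3 to 6. The Siglec-Fint/CD101- libraries held 488 and 137 CPM, and the SiglecFhi/CD101+ libraries 172 and 452 CPM. Of each pair, 1 library thus lay inside the resident range and 1 below it. The log2 fold change from resident was -1.04 ± 0.60 in Siglec-Fint/CD101- (edgeR adjusted p = 0.372) and -1.05 ± 0.60 in SiglecFhi/CD101+ libraries (adjusted p = 0.369), and 0.00 ± 0.66 between the subsets. Gm26885, which overlaps Pim1 on the other strand, had 326 counts or fewer.

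Counted over the 10 genes, 5 (Csf2ra, Csf2rb, Stat5a, Socs3 and Cish) had SiglecFhi/CD101+ values below every resident value, and 27.4% of all tested genes did so. With RLE normalization there were 3, without Csf2rb and Cish, and with library totals alone 8. For Siglec-Fint/CD101- against resident libraries there were 3 (Csf2rb, Csf2rb2 and Socs2), beside 29.3% of all genes, again 3 with RLE and 7 with totals alone. The shares of all genes were taken with TMM only, so the counts with RLE and totals have no share beside them. On totals alone the median log2 fold change of all genes from resident was -1.457 in SiglecFhi/CD101+ and -1.957 in Siglec-Fint/CD101- libraries. Lower in SiglecFhi/CD101+ than in Siglec-Fint/CD101- libraries without overlap were 3 (Csf2ra, Socs3 and Cish), beside 11.9% of all genes. None of the 10 lay above the resident range in both libraries of a subset, where 6.78% and 4.46% of all genes did in SiglecFhi/CD101+ and Siglec-Fint/CD101- libraries and 0.702% in all 4 subset libraries.

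**Figure D3:**
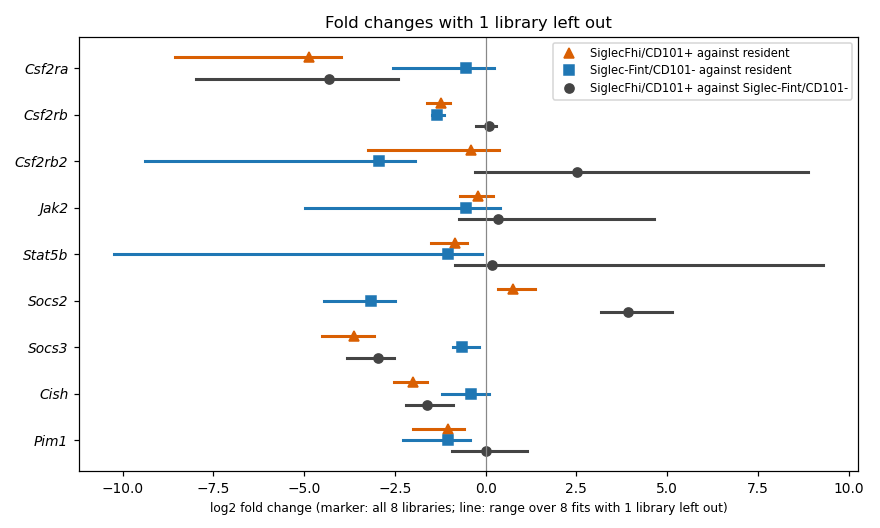
Log2 fold changes of 9 of the 10 genes (horizontal axis) in the 3 pairwise comparisons, from all 8 libraries (markers) and as the range over the 8 fits that leave out 1 library (lines). Stat5a is not drawn, since its fold is a bound. The lines of Csf2rb are short and those of Socs2 and Socs3 keep to 1 side of 0, while those of Csf2rb2, Jak2 and Stat5b are long where 1 library of a pair has few or no counts. The far ends of the longest Csf2rb2 and Stat5b lines come from a group left with 0 counts and are no measure of size.

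Other genes of the pathway were counted over 7 lists: ligands, alpha chains, kinases, adaptors of the MAPK and PI3K branches, other STAT factors, inhibitors and targets. Of 67 genes, 59 were tested, and 0 passed edgeR's test in either direction in any comparison, with a smallest adjusted p of 0.1 for Il1rl1 in the mean of both subsets against resident libraries. At an unadjusted p under 0.05, 11 were lower and 0 higher in SiglecFhi/CD101+ against resident libraries, or 18.6% lower beside 13.1% of all tested genes. In Siglec-Fint/CD101- against resident libraries 7 were lower (11.9%, beside 13.8%) and 0 higher. Between the subsets 6 were higher (10.2%, beside 9.98%) and 4 lower (6.78%, beside 7.96%) in SiglecFhi/CD101+ libraries. For the mean of both subsets 8 were lower (13.6%, beside 21.0%) and 0 higher. The shares of the 59 genes thus lay near or below those of all genes, apart from the first, which was higher. Their median log2 fold changes were -0.551, -0.599 and -0.251 in the pairwise comparisons in that order, beside -0.716, -0.997 and 0.0 for all genes. Among 16 tested targets, 6 (37.5%, beside 13.1% of all genes) were lower at that level in SiglecFhi/CD101+ against resident libraries. These were Mcl1, Ccnd2, Cdkn1a, Il1rl1, Id2 and Spi1. In Siglec-Fint/CD101- against resident libraries 2 targets, Bcl2 and Il1rl1, were lower (12.5%, beside 13.8%). Between the subsets 1 target, Bcl2, was higher in SiglecFhi/CD101+ libraries (6.25%, beside 9.98%) and 0 lower (beside 7.96%). Among 13 inhibitors, 1 (Socs4) was lower in SiglecFhi/CD101+ against resident libraries (7.69%, beside 13.1%). In Siglec-Fint/CD101- against resident libraries 4 inhibitors, Socs5, Socs7, Ptpn2 and Cbl, were lower (30.8%, beside 13.8%). Between the subsets 4 inhibitors were higher (30.8%, beside 9.98%) and 1 lower (7.69%, beside 7.96%) in SiglecFhi/CD101+ libraries. In the pairwise comparisons, in the same order, the targets' medians were -1.165, -0.514 and -0.678. Those of the inhibitors were -0.228, -1.877 and 1.663. Targets and inhibitors are given because they are the lists nearest the 10 genes in role, and neither was tested as a list.

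Among survival genes, Mcl1, which encodes a BCL2 relative that blocks cell death, was at 158, 214, 112 and 211 CPM in resident replicates 3 to 6. It was at 95.97 and 135 CPM in Siglec-Fint/CD101- libraries, while SiglecFhi/CD101+ libraries held 64.1 and 12.2 CPM, both below all other libraries. Their log2 fold change was -2.19 ± 0.73 from resident (edgeR adjusted p = 0.214). Bcl2, another such gene, was without counts in the Siglec-Fint/CD101- libraries and had 73 and 0 in SiglecFhi/CD101+ libraries, against 5.51 to 12.8 CPM in resident libraries. Taking 3 counts per group as the floor, Bcl2 was at least 10.1-fold lower in Siglec-Fint/CD101- than in resident libraries (edgeR adjusted p = 0.295). This bound covers counting error of the 0 counts only and takes the resident counts as exact. Bcl2l1, which encodes BCL-XL, was at 42.8 to 69.9 CPM in resident, 13.8 and 52.2 CPM in Siglec-Fint/CD101- and 4.77 and 68.9 CPM in SiglecFhi/CD101+ libraries, which overlapped. Of the other PIM kinases, Pim3 was at 5.35 to 43.4 CPM in resident, 45.8 and 1.86 CPM in Siglec-Fint/CD101- and 21.7 and 0 CPM in SiglecFhi/CD101+ libraries. Pim2 had counts in 3 of 4 resident libraries and in 1 library of each subset. Osm, which encodes the cytokine oncostatin M, was at 10.4 to 34.2 CPM in resident and 6.89 and 10.4 CPM in SiglecFhi/CD101+ libraries, and at 46.5 and 0.62 CPM (64 and 1 counts) in the Siglec-Fint/CD101- libraries. Ccnd3, a cyclin of the early cell cycle, was at 85.7 to 119 CPM in resident, 114 and 33.5 CPM in Siglec-Fint/CD101- and 72.1 and 13.4 CPM in SiglecFhi/CD101+ libraries.

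Of kinases and STAT factors beside JAK2 and STAT5, some differed widely within a subset and others did not. Jak1, which serves many other cytokine receptors, was at 151 to 279 CPM in resident libraries, and 231 and 127 CPM in Siglec-Fint/CD101- libraries. The SiglecFhi/CD101+ libraries held 15.4 and 428 CPM of it, 1 below and 1 above the resident range. Lyn, a Src family kinase of eosinophils, was at 56.7 to 139.7 CPM in resident and 56.7 and 100 CPM in SiglecFhi/CD101+ libraries, and at 48.0 and 27.3 CPM in Siglec-Fint/CD101- libraries, below both (log2 fold change -1.44 ± 0.73 from resident; edgeR adjusted p = 0.335). Tyk2, another Janus kinase, was at 1.00 to 26.6 CPM in resident and at 13.04 CPM or less in subset libraries. Stat6, the factor of IL-4 and IL-13, was at 41.4 to 65.2 CPM in resident and 25.4 and 27.3 CPM in Siglec-Fint/CD101- libraries, while SiglecFhi/CD101+ libraries held 67.9 and 0.61 CPM. Stat3 was at 92.1 to 163 CPM in resident, 117 and 12.4 CPM in Siglec-Fint/CD101- and 74.2 and 11.6 CPM in SiglecFhi/CD101+ libraries.

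Of inhibitors outside the 10 genes, 3 are given by library. Socs1, a further inhibitor of JAK kinases, was at 0.28 to 24.2 CPM in resident, 0 and 27.9 CPM in Siglec-Fint/CD101- and 10.1 and 13.4 CPM in SiglecFhi/CD101+ libraries. Ptpn6, the phosphatase SHP-1, was at 32.8 to 96.8 CPM in resident and 28.4 and 130.4 CPM in Siglec-Fint/CD101- libraries, while SiglecFhi/CD101+ libraries held 0 and 23.2 CPM, below the other 6. Sh2b3, the adaptor LNK, was at 6.17 to 26.7 CPM in resident, 7.998 and 13.7 CPM in Siglec-Fint/CD101- and 0 and 14.6 CPM in SiglecFhi/CD101+ libraries. None of these 3 passed in any comparison.

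**Figure D4:**
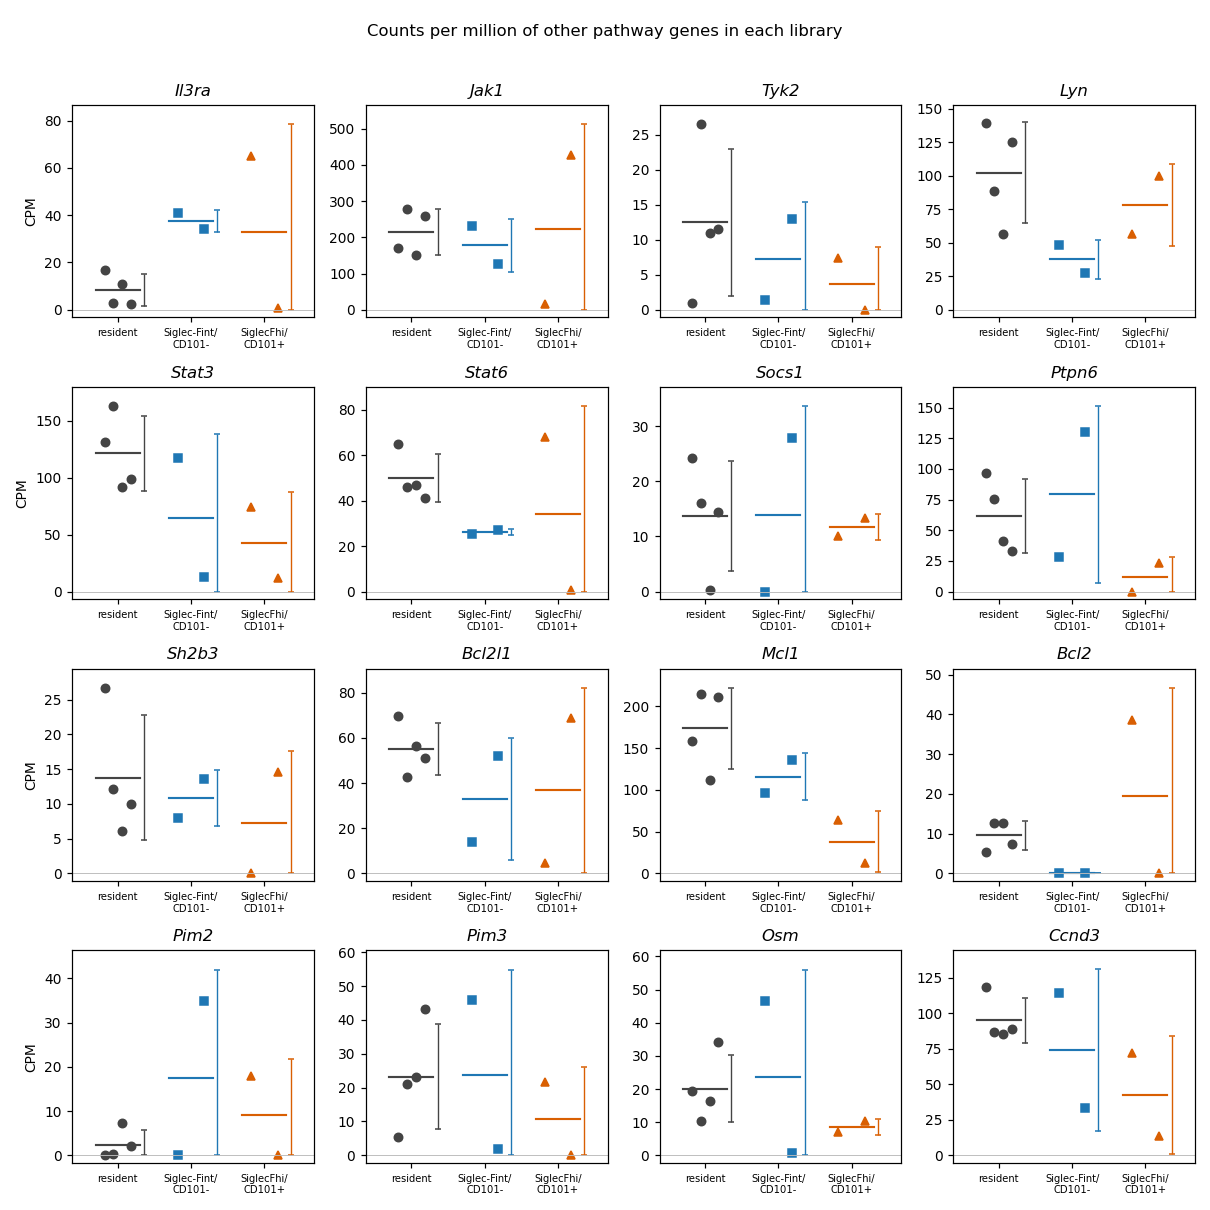
CPM (vertical axes, linear) of 16 other genes of the pathway in each library, drawn as in the plot of the 10 genes, with group means and mean ± SD. Within a subset the 2 libraries often lie far apart, as for Jak1 in SiglecFhi/CD101+ libraries (15.4 and 428 CPM) and Osm in Siglec-Fint/CD101- libraries (46.5 and 0.62 CPM).

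The profile of Csf2rb over the 8 libraries was closest to those of Ccnl1, Nfkb1, Pde4b, Hnrnpf and Eif3m. These had the smallest Euclidean distances between log2 CPM profiles centred on their means, 0.465, 0.583, 0.804, 0.814 and 0.839, among 10976 genes ranked (the 10 genes and predicted genes without a proper symbol were left out; prior count 2). Nfkb1, for example, was at 120.8 to 273 CPM in resident and 88.2 to 124 CPM in subset libraries. The distances describe these libraries only.

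Marker transcripts of other cell types were present at levels that differed between libraries. Epithelial markers (5 genes, all with a count in each group) had the highest sums in every library, 961.9 to 12950 CPM in resident and 3814 to 7163 CPM in subset libraries, beside 149 to 455 CPM for the 11 eosinophil markers. Endothelial or fibroblast markers (6 genes) summed to 130 to 715 CPM in resident and 382 to 621 CPM in subset libraries. T or NK cell markers (7 genes) summed to 18.4 to 28.6 CPM in resident and 2.44 to 134 CPM in subset libraries. Neutrophil markers (10 genes) summed to 124 to 496 CPM in resident, 596 and 1524 CPM in Siglec-Fint/CD101- and 300.1 and 1098 CPM in SiglecFhi/CD101+ libraries. Of these markers, 9 had a count in resident and 7 in each subset's libraries, and Ly6g had 0 in resident and SiglecFhi/CD101+ libraries. Macrophage markers (9 genes, all with a count in each group) summed to 245 to 664 CPM in resident, 688 and 287.5 CPM in Siglec-Fint/CD101- and 156 and 229 CPM in SiglecFhi/CD101+ libraries. SiglecFhi/CD101+ libraries, with the lowest sums, also had the lowest Csf2ra and Socs3. Between those libraries Csf2ra rose with the sum (0.53 and 12.8 CPM in replicates 1 and 2), while Socs3 fell (19.6 and 7.93 CPM). Monocyte markers (5 genes) were at 94.0 to 210 CPM in resident, 96.7 and 92.5 CPM in Siglec-Fint/CD101- and 75.8 and 17.1 CPM in SiglecFhi/CD101+ libraries, where Vcan had 0 counts. Dendritic cell markers (8 genes) were at 216 to 523 CPM in resident, 162 and 241 CPM in Siglec-Fint/CD101- and 141 and 81.1 CPM in SiglecFhi/CD101+ libraries. The monocyte and dendritic cell sums were thus also lowest in SiglecFhi/CD101+ libraries. Unlike the macrophage sum, both fell there from replicate 1 to replicate 2, while Csf2ra rose and Socs3 fell. Mast cell and basophil markers (6 genes) were at 78.3 to 153 CPM in resident, 25.4 and 29.8 CPM in Siglec-Fint/CD101- and 109 and 68.9 CPM in SiglecFhi/CD101+ libraries. Of these markers, Mcpt8, Ms4a2 and Fcer1a had 0 counts in both subsets. Siglec-Fint/CD101- libraries were lowest in this sum and in Socs2. Between them Socs2 fell as the sum rose (9.45 and 2.48 CPM in replicates 1 and 2). B cell markers (6 genes) were at 77.7 to 187 CPM in resident and 198 to 857 CPM in subset libraries. The part of these cells in the levels of the 10 genes was not tested.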

How the data were processed

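CEL-Seq libraries of sorted eosinophils (8) were sequenced on an Illumina instrument, per the labels' protocols. The deposited tables hold raw counts per Ensembl gene. The submitters' processing notes name, without settings, the counter HTSeq 0.6.1, the aligners TopHat2 2.1.0 and Bowtie2 2.2.6, the trimmers cutadapt 1.10 and Trim Galore, FastQC 0.11.5 and DESeq2 1.28.0. Build, annotation, strand setting and use of molecular identifiers were not stated there or in the labels. If reads were counted, amplification copies add to the spread and counting intervals are too narrow. Symbols matched 54409 of 54446 identifiers (GENCODE M21, GRCm38). Groups come from sample titles.

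Counts were fitted in R 4.3.3 with edgeR 4.0.16 (TMM, filterByExpr, group means over all 8 libraries, robust quasi-likelihood, two-sided), with Benjamini-Hochberg adjustment over 11828 genes. The common biological coefficient of variation was 1.12. SE is the absolute log2 fold change over the square root of F. A check of the fit on simulated data required recovery only of large changes at a spread well below the estimated one. It does not show which changes the fit could find in these libraries. Named were the 10 members, 20 pathway genes fixed by role, and the 5 genes nearest Csf2rb (prior count 2). Members and lists were chosen with earlier results of these data known. Genes given only for an unadjusted p, and Il1rl1, were named after their values were seen. Alternatives were RLE, library totals, mitochondrial genes left out, other filters, DESeq2 1.42.0, limma-voom (limma 3.58.1), a non-robust fit, thinning to 444902 counts outside mitochondrial genes, a replicate block, a fit of only the groups compared, and each library left out.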

Additional observations from a re-analysis of the deposited data

Results flagged for a closer look

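In the 4 resident libraries, 3 of 30 named genes had a library far from the other 3. Chance gives such a gap in about 1 in 20 groups of normally distributed values. That rate does not apply to Il5 and Il5ra, whose other libraries were at or near 0 counts. Il3, without counts, could not be flagged. Il5ra was at 3.79 CPM in resident replicate 6, which held 57 of its 58 counts. Il5 was at 0.14 CPM in resident replicate 5, from its only 2 counts. Ccnd3 was at 119 CPM in resident replicate 3, against 85.7 to 89.0 CPM in the others.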

How the results depend on the processing

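Which genes passed depended strongly on the method, and the cause was not tested. For SiglecFhi/CD101+ against resident libraries, 3 genes passed, but 7 on library totals alone, 370 with no filter, 907 with DESeq2, 5 after thinning and 1 with the compared groups alone. Leaving out 1 library gave 1 to 133, with 131 and 133 without Siglec-Fint/CD101- replicate 1 and 2. For Siglec-Fint/CD101- against resident libraries, 7 passed, but 3 on totals, 136 with no filter, 1 with a minimum of 20 counts in 2 libraries, 652 with DESeq2, 2 with limma-voom, 1 in the non-robust fit, 0 with the compared groups alone and 0 to 9 with 1 library left out. Between the subsets 1 passed, but 85 with no filter, 1269 with DESeq2, 0 with limma-voom, 7 after thinning, 0 with the compared groups alone and 0 to 2 with 1 library left out. For the mean of both subsets 3 passed, but 8 with RLE, 773 on totals, 201 with no filter, 1020 with DESeq2, 5 with limma-voom and 2 to 6 with 1 library left out.

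Of the 10 genes, 0 passed in each comparison. In SiglecFhi/CD101+ against resident libraries, 2 passed with no filter, 3 with DESeq2 and 0 to 2 with 1 library left out. In Siglec-Fint/CD101- against resident libraries 1 passed with DESeq2. Between the subsets 1 passed with no filter and 4 with DESeq2. For the mean of both subsets, 3 (Csf2ra, Csf2rb and Socs3) passed on totals, 2 with no filter and 1 with DESeq2. Beside these stand the counts of all genes in the paragraph above, out of 21197 genes tested with no filter and 11828 on totals or with DESeq2. In SiglecFhi/CD101+ against resident libraries, for example, 370 of all genes passed with no filter and 907 with DESeq2.

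Some log2 fold changes changed sign, and not all of these were near 0. Against resident libraries, those of SiglecFhi/CD101+ became positive for Csf2rb2 with RLE (0.064), DESeq2 (0.065) and thinning (0.419), and for Jak2 with RLE (0.256) and DESeq2 (0.256). With 1 library left out they ran from -3.24 to 0.381 for Csf2rb2 and from -0.71 to 0.201 for Jak2. In Siglec-Fint/CD101- libraries such ranges were -2.542 to 0.242 for Csf2ra, -4.963 to 0.403 for Jak2 and -1.207 to 0.081 for Cish. For the mean of both subsets, Jak2 was at 0.049 with RLE and 0.05 with DESeq2, and from -2.643 to 0.041 with 1 library left out. Between the subsets Pim1, at -0.002, was at 0.1 with RLE and DESeq2, 0.212 on totals, 0.04 with mitochondrial genes left out, 0.007 with no filter, 0.037 with the minimum of 20 counts, 0.124 with limma-voom, 0.093 after thinning, 0.137 with the compared groups alone and -0.934 to 1.144 with 1 library left out. There the other ranges were -0.254 to 0.275 for Csf2rb, -0.848 to 9.29 for Stat5b, -0.725 to 4.641 for Jak2 and -0.285 to 8.881 for Csf2rb2, where ends past 8 come from a group left with 0 counts. With all 8 libraries, Csf2rb2 was at 2.53 ± 2.04 between the subsets.

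Whether replicate numbers pair the subsets' libraries is not stated in the labels. Deviations of same-numbered libraries from their subset means correlated at 0.007 across 11828 genes. With 2 libraries per subset, both numbers give the same single value, which cannot decide the question. With the replicate block, 4 genes and 0 of the 10 passed between the subsets, and Pim1 was at 0.244. RLE moved the median log2 fold change of all genes from -0.716 to -0.256 in SiglecFhi/CD101+ and from -0.997 to -0.63 in Siglec-Fint/CD101- against resident libraries, and library totals moved them to -1.457 and -1.957. Subset libraries with 444902 to 552121 counts outside mitochondrial genes limit what can be said of Csf2rb2, Stat5a and Stat5b.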
